A study of Mus musculus with 2 samples.

Results

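Cathepsins and cystatins were followed here as 9 genes, the cathepsins Ctsb, Ctsc, Ctsd, Ctsk, Ctsl, Ctss and Ctsz and the cystatins Cst3 and Cstb. They were picked by their symbols, and all 9 were found among the 56941 genes of both single-cell count matrices. The tumours were grown under the skin of C57BL/6 mice from MC38 cells, a mouse colon adenocarcinoma line, which had been made into a stable pool with a lentivirus that carried SPP1 (osteopontin, a secreted glycoprotein) or the empty vector. Both groups received anti-PD1, an antibody against PD-1, a brake on T cells, given at 10 mg/kg in 2 doses a week for 2 weeks from day 7, so no tumour without anti-PD1 was part of the comparison. The labels give the genotype of both as WT and report SPP1 protein by Western blot; whether mice were pooled, and the species of the transgene, are not stated in the labels. There was 1 library for each group, so no difference between them has a replicate check, and the intervals below are exact 95% intervals that cover counting error only.

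In these counts mouse Spp1 did not separate the libraries the way their labels read, and they are therefore called the library labelled SPP1 and the library labelled vector throughout; beside a value, SPP1 or vector stands for the library so labelled. In the Hmga2- and Sox9-high compartment, the bulk of the cells, Spp1 stood at 126 CPM (counts for every 1e+06 UMIs) in the library labelled SPP1 and 133 CPM in that labelled vector. Filters and a doublet caller left 13550 (SPP1) and 13848 (vector) cells, with 93 barcodes shared between the libraries before the filters. The members held 321578 of 155952381 unique molecular identifiers (UMIs, counted molecules) in the library labelled SPP1 and 319413 of 156655385 in that labelled vector. Cells were clustered without cathepsin and cystatin genes and classes were named from marker lists, so the members took no part in defining them. Macrophage/monocyte-like cells numbered 737 (SPP1) and 904 (vector), T and NK-like cells 109 (SPP1) and 162 (vector), fibroblast-like cells 42 (SPP1) and 39 (vector), dendritic cell-like cells 25 (SPP1) and 48 (vector), and endothelial-like cells 15 (SPP1) and 16 (vector). The compartment of 10191 (SPP1) and 10162 (vector) cells is the remainder: clusters that matched no marker list and were not low in UMIs. It is named after Hmga2 and Sox9, which were not picked as the leading genes of its clusters. The epithelial tumour markers summed to 0.623 (SPP1) and 0.607 (vector) CPM in it, although the labels give colon adenocarcinoma cells. A pair of its clusters was nearly confined to 1 library (SPP1 1611 cells, vector 65, and SPP1 763 cells, vector 33). Low-UMI cells and mixed or unnamed cells, 2114 and 317 in the library labelled SPP1 and 2157 and 360 in that labelled vector, were left out of the named classes.

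Cathepsins B, C, K, L, S and Z are papain-type cysteine proteases that are made as inactive precursors and work mainly inside lysosomes, whereas cathepsin D is an aspartic protease of the same organelle. Cystatin C, encoded by Cst3 and secreted, and cystatin B, encoded by Cstb and held in the cytosol, block cysteine proteases of this type but not cathepsin D. In macrophages and dendritic cells these enzymes degrade engulfed protein and help to load peptides onto MHC class II, and macrophages are a known source of cathepsins in tumours.

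Of the cathepsins, Ctsb, Ctsl and Ctsz had UMIs in every named class of both libraries, and their levels across classes differed in pattern. Ctsb encodes cathepsin B, a broadly made protease with both endo- and exopeptidase activity. Its level in macrophage/monocyte-like cells was 3176 CPM in the library labelled SPP1 and 2872 CPM in that labelled vector, or 12.0 (SPP1) and 11.2 (vector) times the level in the compartment. Fibroblast-like cells (SPP1 847, vector 958 CPM) and endothelial-like cells (SPP1 1188, vector 724 CPM) came next in both libraries. Their order differed between the libraries, and in the library labelled vector their intervals overlapped. Dendritic cell-like cells (SPP1 202, vector 280 CPM), the compartment (SPP1 265, vector 256 CPM) and T and NK-like cells (SPP1 138, vector 165 CPM) were lowest, and the intervals of dendritic cell-like cells overlapped those of the compartment in both libraries. The class with the highest level did not hold most of the Ctsb UMIs: the compartment held 63.1% (SPP1) and 59.9% (vector), and macrophage/monocyte-like cells 28.9% (SPP1) and 32.6% (vector).

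Ctsl, which encodes cathepsin L, a strong endopeptidase, was nearly level between macrophages and the compartment. It measured 504 (SPP1) and 508 (vector) CPM in macrophage/monocyte-like cells against 546 (SPP1) and 504 (vector) CPM in the compartment, a ratio of 0.92 (SPP1) and 1.01 (vector). Endothelial-like cells held 418 (SPP1) and 535 (vector) CPM, fibroblast-like cells 325 (SPP1) and 423 (vector) CPM, dendritic cell-like cells 56.9 (SPP1) and 30.1 (vector) CPM, and the T and NK class 33.5 (SPP1) and 44.6 (vector) CPM. The compartment thus carried 89.5% (SPP1) and 89.0% (vector) of all Ctsl UMIs. Ctsz encodes cathepsin Z, also called X, a carboxypeptidase. It was highest in macrophage/monocyte-like cells at 296 (SPP1) and 284 (vector) CPM, and dendritic cell-like cells followed at 171 (SPP1) and 238 (vector) CPM. The compartment held 70.6 (SPP1) and 63.3 (vector) CPM of Ctsz and fibroblast-like cells 65.5 (SPP1) and 58.5 (vector) CPM, while T and NK-like cells had 7.89 (SPP1) and 27.3 (vector) CPM from 4 (SPP1) and 19 (vector) UMIs. Endothelial-like cells had 54.0 (SPP1) and 16.5 (vector) CPM of Ctsz from only 8 (SPP1) and 2 (vector) UMIs.

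**Figure D1:**
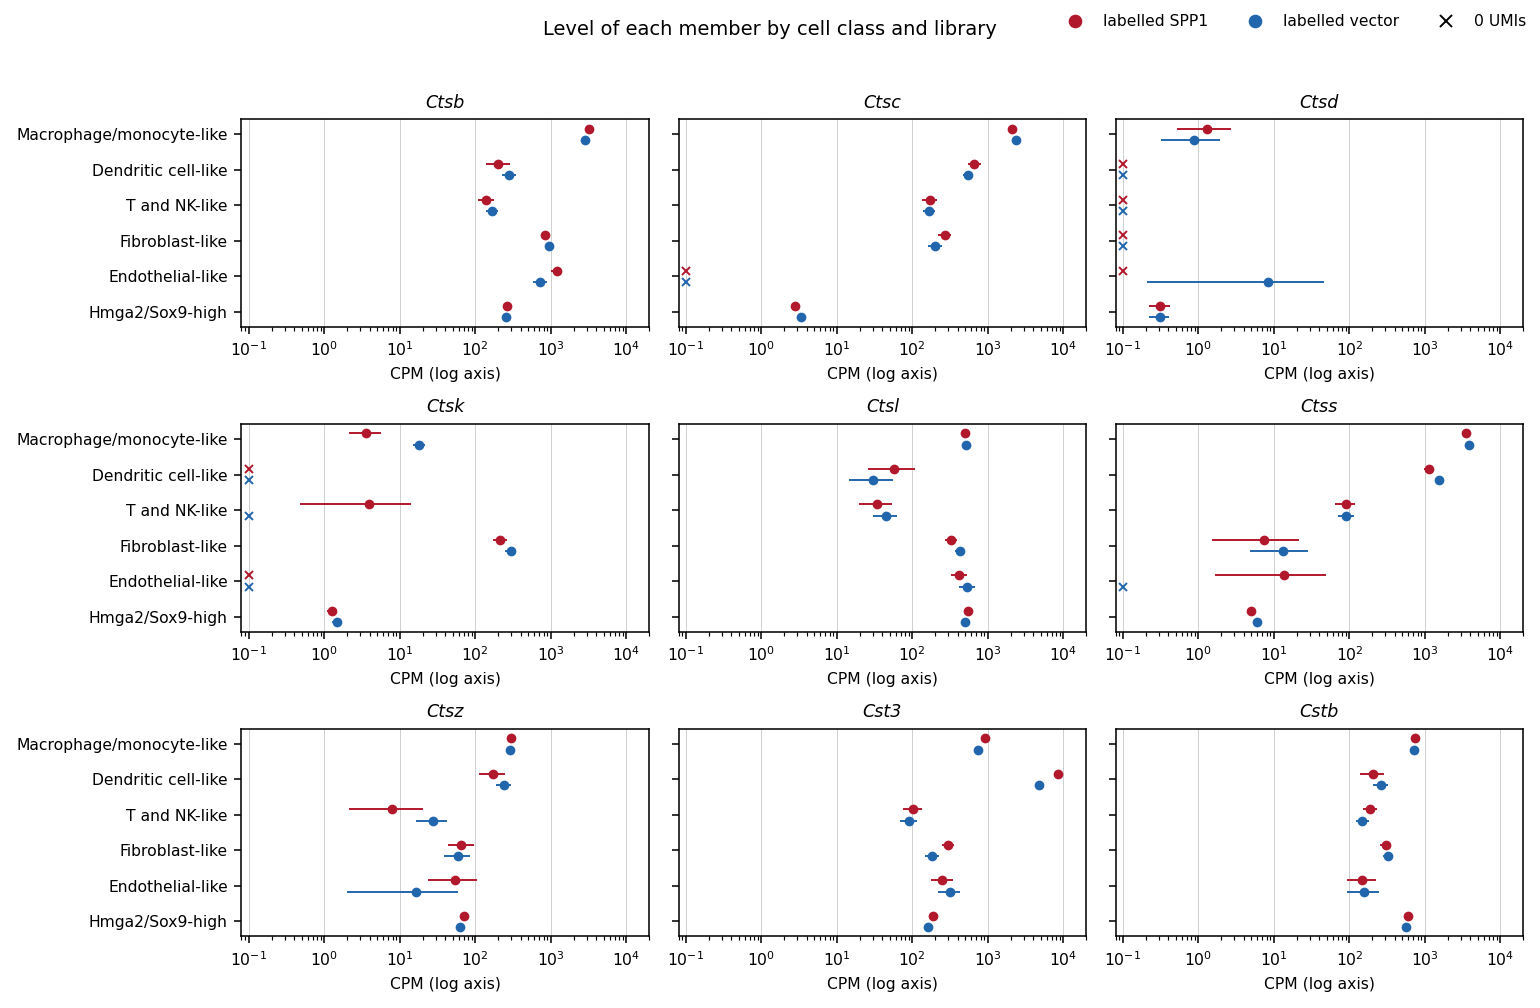
Level of each of the 9 genes (CPM of the summed UMIs of a class, log axis) in 6 cell classes, with red points for the library labelled SPP1 above blue points for the library labelled vector; bars are exact 95% Poisson intervals and a cross at the left edge marks 0 UMIs. Ctss and Ctsc span the classes widely, with 3444 (SPP1) and 3804 (vector) CPM of Ctss in macrophage/monocyte-like cells against 4.93 (SPP1) and 5.94 (vector) CPM in the compartment, while Ctsl in macrophage/monocyte-like cells lies beside its compartment level.

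Ctss and Ctsc were highest in macrophage/monocyte-like and dendritic cell-like cells. Cathepsin S, encoded by Ctss, cuts the invariant chain from MHC class II and keeps its activity at neutral pH. Cathepsin C, also called dipeptidyl peptidase I, removes dipeptides and thereby activates granule serine proteases such as granzymes. The sequence around their start sites is shown because the macrophage-rich pair shared an 8-letter match that Ctsl, nearly level between macrophages and the compartment, lacked. The sequences are those of RefSeq on GRCm38.p6, from 250 bases before to 50 after the start. They are written 5′ to 3′ on the gene's strand, with the 8-letter match in capitals. A promoter sequence was available for 7 of the 9 members, all but Ctsb and Cstb. Ctss lies at chr3:95526536-95526835 on the plus strand, Ctsc at chr7:88277835-88278134 on the plus strand and Ctsl at chr13:64370471-64370770 on the minus strand.
Ctss: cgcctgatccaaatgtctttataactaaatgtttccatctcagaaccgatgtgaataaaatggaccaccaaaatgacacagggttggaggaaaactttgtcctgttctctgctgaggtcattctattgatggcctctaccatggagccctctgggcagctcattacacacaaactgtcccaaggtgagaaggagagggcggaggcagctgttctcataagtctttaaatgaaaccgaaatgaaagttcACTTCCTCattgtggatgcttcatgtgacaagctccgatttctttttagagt
Ctsc: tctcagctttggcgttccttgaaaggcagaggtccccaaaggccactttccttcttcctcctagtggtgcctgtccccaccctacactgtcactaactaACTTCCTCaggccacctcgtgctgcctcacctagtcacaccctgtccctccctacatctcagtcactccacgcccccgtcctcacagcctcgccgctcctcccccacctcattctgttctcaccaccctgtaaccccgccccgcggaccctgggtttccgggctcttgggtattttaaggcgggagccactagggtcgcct
Ctsl: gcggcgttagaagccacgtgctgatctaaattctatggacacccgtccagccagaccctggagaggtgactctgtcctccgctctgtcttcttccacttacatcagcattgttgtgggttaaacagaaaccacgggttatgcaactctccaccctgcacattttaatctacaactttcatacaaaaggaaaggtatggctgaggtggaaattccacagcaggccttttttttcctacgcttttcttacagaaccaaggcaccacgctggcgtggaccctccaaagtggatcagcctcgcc
The letters searched were GAGGAAGT, the core bound by the myeloid factor PU.1, on either strand. They were found in 2 of the 7 promoters and in 3.20% of 32851 promoters of the same length. The match began 2 bases before the start of Ctss, so that it spans the start, and 151 bases before that of Ctsc. Ctsz and Cst3 had no match, although their levels in macrophage/monocyte-like cells were also above the compartment, 4.20 (SPP1) and 4.49 (vector) times for Ctsz and 4.81 (SPP1) and 4.53 (vector) times for Cst3. Of 4 other motifs searched on both strands, CACGTG was in Ctsd and Ctsl (7.15% of promoters), its longer form TCACGTGA, which contains CACGTG, in Ctsd (0.974%), the interferon-type motif (TTTC, any 2 bases, TTTC) in Ctss (3.44%) and the AP-1 type TGACTCA in none of the 7 (5.20%). These are letter matches in a window, and binding was not measured.

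In macrophage/monocyte-like cells Ctss reached 3444 CPM in the library labelled SPP1 and 3804 CPM in that labelled vector, and Ctsc 2098 (SPP1) and 2347 (vector) CPM. These were 699 (SPP1) and 641 (vector) times the compartment level for Ctss, and 763 (SPP1) and 697 (vector) times for Ctsc. At 1000 UMIs drawn from each cell, a Ctss UMI was seen in 88.5% (SPP1) and 94.0% (vector) of macrophage/monocyte-like cells against 0.649% (SPP1) and 0.828% (vector) of compartment cells. Without thinning, 96.9% (SPP1) and 97.3% (vector) of macrophage/monocyte-like cells held one, at median depths of 6967 (SPP1) and 7547 (vector) UMIs a cell. The class held 85.0% (SPP1) and 86.2% (vector) of all Ctss UMIs and 85.8% (SPP1) and 88.3% (vector) of all Ctsc UMIs, from 5.44% (SPP1) and 6.53% (vector) of the kept cells. The low levels in the compartment, 4.93 (SPP1) and 5.94 (vector) CPM for Ctss and 2.75 (SPP1) and 3.37 (vector) CPM for Ctsc, stood beside 32.9 (SPP1) and 28.7 (vector) CPM of the summed 13 macrophage markers there, and the share of free RNA in them was not tested.

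Dendritic cell-like cells came second for both genes. Ctss was 1144 (SPP1) and 1522 (vector) CPM and Ctsc 664 (SPP1) and 548 (vector) CPM in them, in the presence of 386 (SPP1) and 1187 (vector) CPM of the macrophage markers, against 17468 (SPP1) and 14336 (vector) CPM in macrophage/monocyte-like cells. Ctss stood at 88.7 (SPP1) and 90.6 (vector) CPM among T and NK-like cells and Ctsc at 170 (SPP1) and 168 (vector) CPM. By subclass, Ctsc was 223 (SPP1) and 163 (vector) CPM where CD8 T cell markers led, 104 (SPP1) and 199 (vector) CPM where NK markers led and 34.0 (SPP1) and 117 (vector) CPM where regulatory T cell markers led, each from few UMIs. The macrophage markers summed to 369 (SPP1) and 462 (vector) CPM in the whole class, 229 (SPP1) and 309 (vector) CPM of it Ccr2, and their part in the Ctss level was not tested. The pair separated in fibroblast-like cells. Fibroblast-like cells had 267 (SPP1) and 202 (vector) CPM of Ctsc, from 110 (SPP1) and 93 (vector) UMIs, in 25 of 42 (SPP1) and 21 of 39 (vector) cells, but 3 (SPP1) and 6 (vector) UMIs of Ctss; the macrophage/monocyte-like sums were 11214 (SPP1) and 15969 (vector) UMIs of Ctsc and 18407 (SPP1) and 25883 (vector) of Ctss. Endothelial-like cells had 0 Ctsc UMIs in both libraries, which allows up to 20.2 (SPP1) and 24.7 (vector) CPM.

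Ctsk encodes cathepsin K, a collagen-degrading protease best known from bone-resorbing osteoclasts and also made by fibroblasts. Among the named classes its level was highest in fibroblast-like cells, at 211 (SPP1) and 295 (vector) CPM. A Ctsk UMI was seen in 30 of 42 (SPP1) and 33 of 39 (vector) of them. The level was 165 (SPP1) and 202 (vector) times the compartment level of 1.28 (SPP1) and 1.46 (vector) CPM. Of the Ctsk UMIs of all kept cells, fibroblast-like cells held 27.1% (SPP1) and 25.1% (vector), and the compartment 55.8% (SPP1) and 37.7% (vector). Thinned to 1000 UMIs, 22.0% (SPP1) and 27.0% (vector) of fibroblast-like cells showed it. Dendritic cell-like and endothelial-like cells had 0 Ctsk UMIs, which allows up to 19.0 (SPP1) and 9.04 (vector) CPM in dendritic cell-like cells, and T and NK-like cells had 2 (SPP1) and 0 (vector) UMIs. Between libraries the fibroblast-like level was lower in that labelled SPP1, its log2 ratio being -0.48 (interval -0.89 to -0.08), in a class too small for the size rule described below.

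In macrophage/monocyte-like cells Ctsk was 3.56 CPM from 19 UMIs in the library labelled SPP1 and 17.9 CPM from 122 UMIs in that labelled vector. It was seen in 15 (SPP1) and 34 (vector) cells. A single cell of the Igf1/Fabp5/Hmox1 state in the library labelled vector held 77 of the 122 UMIs, or 63.1%, and the next cell held 5, whereas the highest cell in the library labelled SPP1 held 3. The log2 ratio of the class was -2.33 (interval -3.12 to -1.63) with that cell and -0.90 (-1.76 to -0.10) without it.

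Cells of this kind were present in both libraries once predicted doublets were looked at as well. Among all cells that passed the filters, 2 in the library labelled SPP1 (172 and 79 Ctsk UMIs) and 3 in that labelled vector (166, 77 and 20) held 20 or more, and the next cells held 11 (SPP1) and 14 (vector). Both cells of the library labelled SPP1 had been removed as predicted doublets, with scores of 0.233 against a threshold of 0.204. In the library labelled vector the cell with 166 UMIs was removed at a score of 0.2149, just past the threshold of 0.2141, and the cell with 77 was kept at 0.205. The 4 cells with the most Ctsk also carried osteoclast-type transcripts: Mmp9, a gelatinase, had 60 and 41 UMIs in those of the library labelled SPP1 and 107 and 100 in those labelled vector. Acp5, the tartrate-resistant acid phosphatase, had 61 and 56 UMIs in the SPP1 cells against 89 and 18 in the vector cells, and Atp6v0d2, a proton pump subunit of osteoclasts, 51 and 36 in the SPP1 cells against 43 and 30 in the vector cells. Of the 12 osteoclast-type genes, 10 and 9 had a UMI in the cells of the library labelled SPP1 and 9 and 9 in those of the library labelled vector. Lyz2, which leads the macrophage markers of the class, had at most 1 UMI in any of the 4, while Csf1r had 18 and 9 in the SPP1 cells against 12 and 13 in the vector cells. These cells were picked for their Ctsk and are given no cell type name. They and the fifth cell held 251 of 590 Ctsk UMIs of all cells that passed the filters in the library labelled SPP1 and 263 of 717 in that labelled vector. When doublets were kept and all cells clustered anew, these 5 cells, the one with 77 UMIs included, fell in the T and NK-like class, although the 4 highest had a UMI in at most 1 of the 6 T cell markers. In the macrophage/monocyte-like class, then without any of these cells, the log2 ratio of Ctsk was -0.58 (-1.44 to 0.24).

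**Figure D2:**
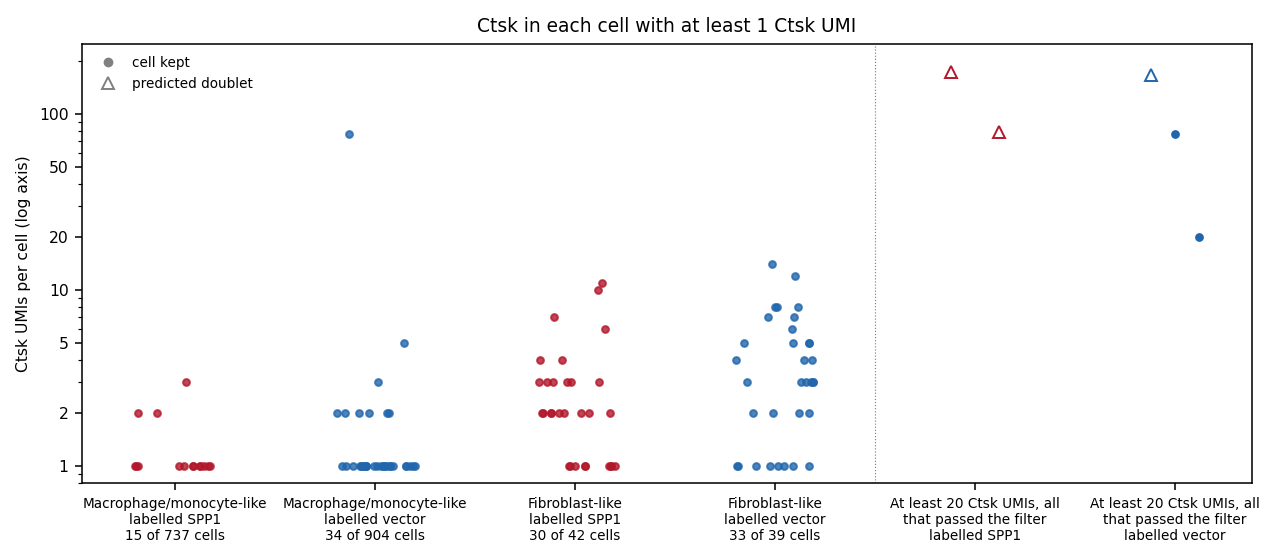
Ctsk UMIs per cell (log axis) for cells with a Ctsk UMI in the macrophage/monocyte-like and fibroblast-like classes, the library labelled SPP1 (red) left of that labelled vector (blue), and, right of the dotted line, every cell that passed the filters with 20 or more Ctsk UMIs; open triangles are predicted doublets. One macrophage/monocyte-like cell of the library labelled vector stands apart at 77 UMIs, and the removed cells of the library labelled SPP1 lie at 172 and 79.

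Ctsd, which encodes cathepsin D, was all but missing from the counts. It had 54 UMIs in each library over all kept cells, 0.346 (SPP1) and 0.345 (vector) CPM, and 7 (SPP1) and 6 (vector) UMIs in macrophage/monocyte-like cells. In GENCODE M21 on GRCm38, Ctsd overlaps Gm49369 on the same strand, and Gm49369 had 0 UMIs in both libraries. The sources used here do not say how reads that lie in both genes were counted, and the part of this overlap was not tested, so the Ctsd counts are left as uncertain. Antisense or same-strand neighbours also overlap Ctsb, Ctsz, Ctsl and Ctss in that annotation.

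Cst3 was highest in dendritic cell-like cells, where every cell held it (SPP1 25 of 25, vector 48 of 48). Its level there was 8351 CPM in the library labelled SPP1 and 4749 CPM in that labelled vector, which was 44.4 (SPP1) and 29.2 (vector) times the compartment level. The log2 ratio was 0.81 (interval 0.71 to 0.92), from 25 (SPP1) and 48 (vector) cells, and stayed between 0.74 and 0.99 under the alternative settings. Among these cells, those with an Xcr1 or Clec9a UMI (SPP1 4, vector 9 cells) held 11582 (SPP1) and 8060 (vector) CPM and those with a Ccr7 or Fscn1 UMI and neither Xcr1 nor Clec9a (SPP1 4, vector 9) 10386 (SPP1) and 4379 (vector) CPM. Cells with none of these 4 genes (SPP1 17, vector 30) held 7044 (SPP1) and 3476 (vector) CPM, so the library labelled SPP1 had the higher value in each subset. The macrophage markers summed to less in the dendritic cell-like cells of the library labelled SPP1, 386 CPM against 1187 CPM in the library labelled vector, and their part in the Cst3 difference was not tested.

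In macrophage/monocyte-like cells Cst3 was 905 (SPP1) and 736 (vector) CPM, 4.81 (SPP1) and 4.53 (vector) times the compartment level of 188 (SPP1) and 163 (vector) CPM. Cst3 was 294 (SPP1) and 182 (vector) CPM in fibroblast-like cells, 250 (SPP1) and 313 (vector) CPM in endothelial-like cells and 101 (SPP1) and 89.2 (vector) CPM in the T and NK class. Cstb was flatter across classes. It measured 738 (SPP1) and 725 (vector) CPM in macrophage/monocyte-like cells and 602 (SPP1) and 556 (vector) CPM in the compartment, against 148 to 301 CPM in the other 4 classes of the library labelled SPP1 and 148 to 325 CPM in those of the library labelled vector. The compartment carried 89.2% (SPP1) and 88.8% (vector) of all Cstb UMIs and 73.8% (SPP1) and 71.5% (vector) of those of Cst3.

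Read as a sum, the inhibitors and their target enzymes kept different proportions in different classes. Cst3 and Cstb together gave 0.172 (SPP1) and 0.149 (vector) UMIs per UMI of the 6 cysteine cathepsins in macrophage/monocyte-like cells. In the compartment the quotient was 0.887 (SPP1) and 0.862 (vector), and in dendritic cell-like cells 3.82 (SPP1) and 1.91 (vector). The dendritic value rested on 1353 cystatin and 354 cathepsin UMIs in the library labelled SPP1 and on 1662 and 869 in that labelled vector. T and NK-like cells stood at 0.652 (SPP1) and 0.478 (vector), fibroblast-like cells at 0.345 (SPP1) and 0.260 (vector) and endothelial-like cells at 0.238 (SPP1) and 0.368 (vector). Across the macrophage states the quotient ran from 0.153 to 0.251 in the library labelled SPP1 and from 0.130 to 0.220 in that labelled vector, below the compartment in every state. The 0.251 came from the Col3a1/Sparc/Actb state, the shallowest, at a median of 1074 (SPP1) and 1182 (vector) UMIs a cell. All quotients rest on sums of transcripts of unequal length and inhibitor strength was not measured.

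**Figure D3:**
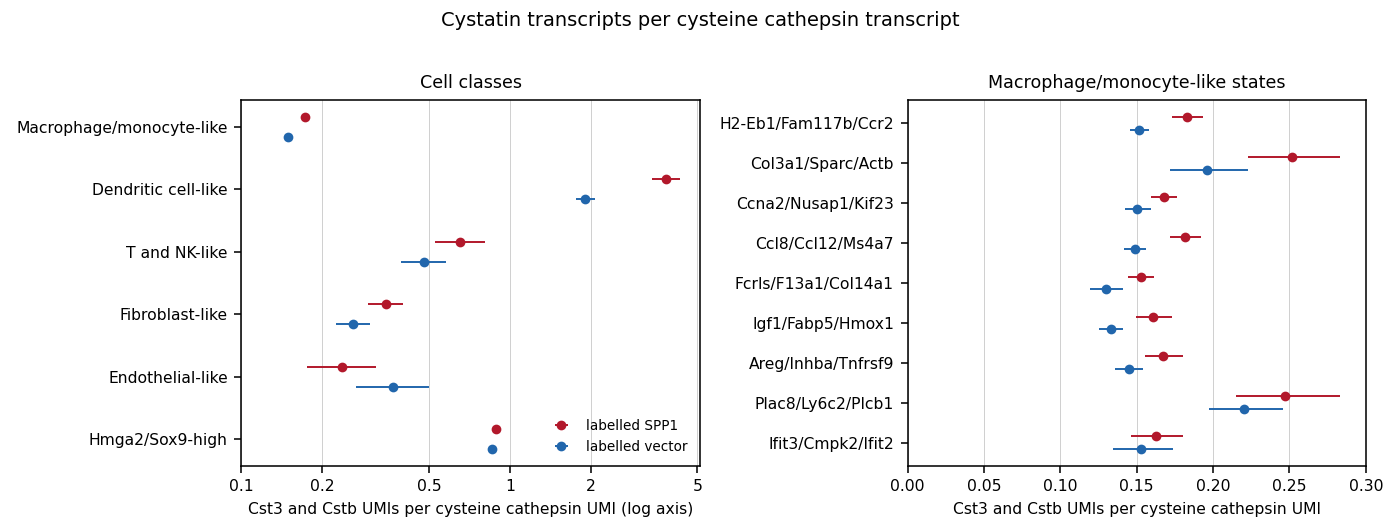
Cst3 and Cstb UMIs per UMI of Ctsb, Ctsc, Ctsk, Ctsl, Ctss and Ctsz, by class (left, log axis) and by macrophage state (right, linear axis), with red for the library labelled SPP1 above blue for that labelled vector and bars for exact 95% intervals. Dendritic cell-like cells lie highest at 3.82 (SPP1) and 1.91 (vector) and macrophage/monocyte-like cells lowest at 0.172 (SPP1) and 0.149 (vector).

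The macrophage/monocyte-like cells fell into 9 states, named by their leading genes. All state values come from the same 2 libraries, so the states are not replicates of each other. The levels of Ctsb and Ctsl varied over the states. Ctsb was high in the Ifit3/Cmpk2/Ifit2 state, led by interferon-induced genes (SPP1 6501, vector 3844 CPM, SPP1 19, vector 22 cells). It was also high in the Igf1/Fabp5/Hmox1 (SPP1 5123, vector 5284 CPM), Fcrls/F13a1/Col14a1 (SPP1 3739, vector 4321 CPM) and Ccl8/Ccl12/Ms4a7 (SPP1 3988, vector 3831 CPM) states. It was lowest in the Plac8/Ly6c2/Plcb1 state, led by monocyte genes (SPP1 1212, vector 887 CPM). Ctsl was 1828 (SPP1) and 1039 (vector) CPM in the Ifit3/Cmpk2/Ifit2 state, 947 (SPP1) and 826 (vector) CPM in the Igf1/Fabp5/Hmox1 state and 292 (SPP1) and 230 (vector) CPM in the Plac8/Ly6c2/Plcb1 state. In the Fcrls/F13a1/Col14a1 state Ctsl was 338 (SPP1) and 653 (vector) CPM, and in the Areg/Inhba/Tnfrsf9 state 699 (SPP1) and 726 (vector) CPM.

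Ctss and Ctsc were both high in the Ccl8/Ccl12/Ms4a7 state, with 5093 (SPP1) and 6221 (vector) CPM of Ctss and 2725 (SPP1) and 2923 (vector) CPM of Ctsc. Ctsb was high there as well, at 3988 (SPP1) and 3831 (vector) CPM. In another pair of states where Ctsb was high, Ctsc was low. It was 1282 (SPP1) and 1910 (vector) CPM in the Ifit3/Cmpk2/Ifit2 state and 1363 (SPP1) and 1728 (vector) CPM in the Igf1/Fabp5/Hmox1 state. The H2-Eb1/Fam117b/Ccr2 state, led by an MHC class II gene, had 2411 (SPP1) and 2466 (vector) CPM of Ctsc and the low Ctsl of 263 (SPP1) and 252 (vector) CPM. Cst3 was highest in the Ccl8/Ccl12/Ms4a7 state (SPP1 1421, vector 1196 CPM) and lowest in the Areg/Inhba/Tnfrsf9 state (SPP1 623, vector 513 CPM). Cstb was highest in the Ifit3/Cmpk2/Ifit2 state (SPP1 1444, vector 955 CPM), where Ctsz was 545 (SPP1) and 382 (vector) CPM and Ctss 5513 (SPP1) and 3742 (vector) CPM. The states were unequally filled: the Fcrls/F13a1/Col14a1 state held 18.3% (SPP1) and 6.08% (vector) of the class and the H2-Eb1/Fam117b/Ccr2 state 14.4% (SPP1) and 26.4% (vector).

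**Figure D4:**
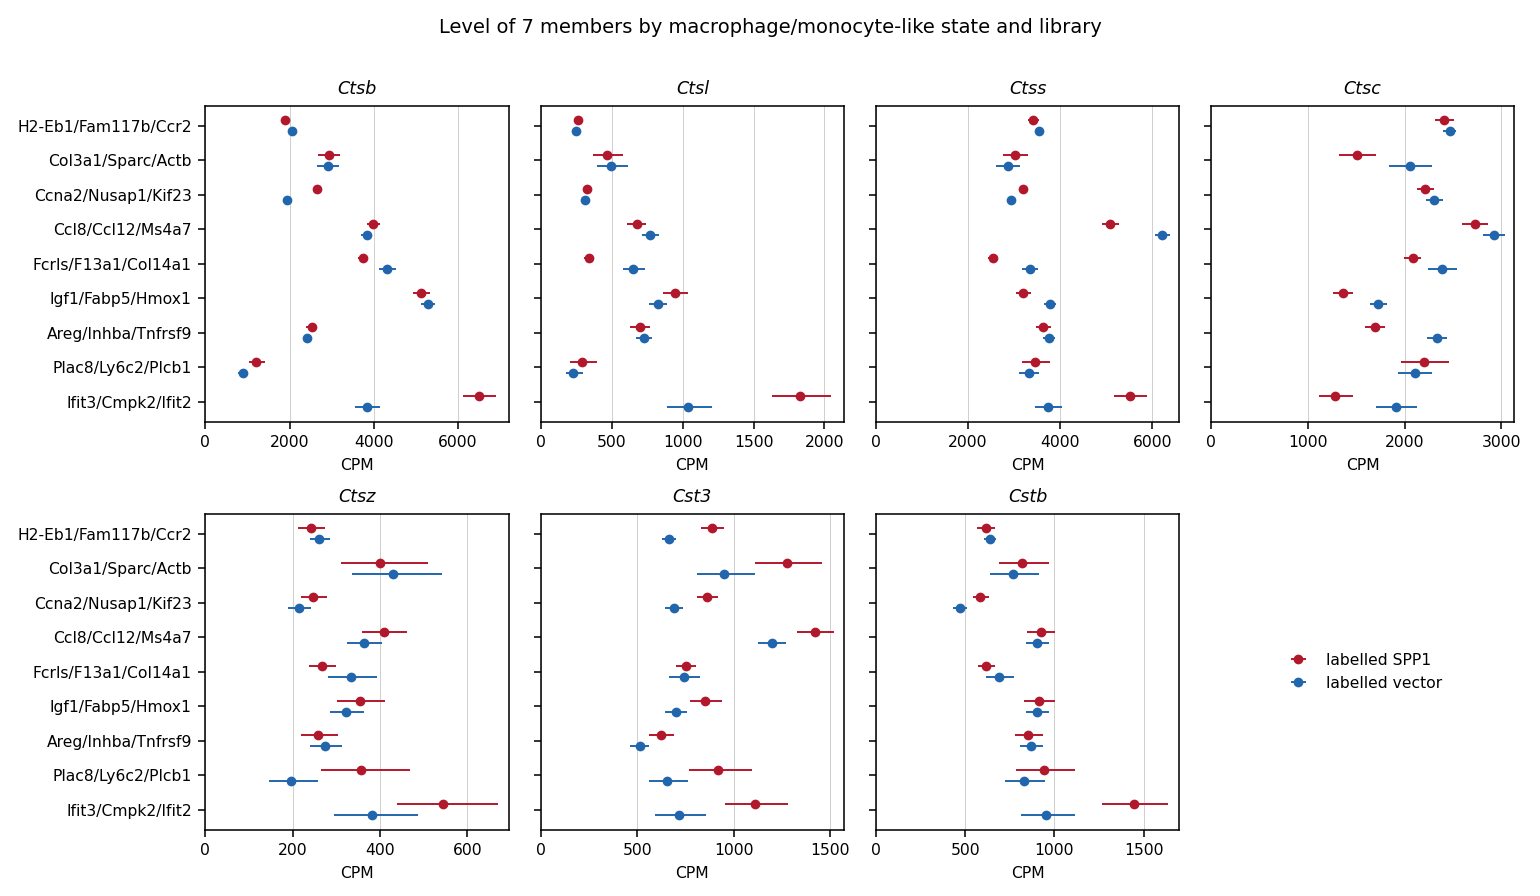
Level (CPM, linear axis) of 7 members in the 9 macrophage/monocyte-like states, red for the library labelled SPP1 above blue for that labelled vector, with exact 95% Poisson intervals. In the library labelled SPP1, Ctsb is highest in the Ifit3/Cmpk2/Ifit2 state (SPP1 6501, vector 3844 CPM). In that labelled vector it is highest in the Igf1/Fabp5/Hmox1 state (SPP1 5123, vector 5284 CPM), and the Ifit3/Cmpk2/Ifit2 state lies below the Fcrls/F13a1/Col14a1 state (vector 4321 CPM). Ctss and Cst3 are high in the Ccl8/Ccl12/Ms4a7 state.

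Between libraries the members' levels lay close together in macrophage/monocyte-like cells. A size rule was used in classes with at least 100 cells in each library: a gene with at least 100 UMIs counts as higher or lower when the whole interval of its ratio lies beyond 1.5-fold. Of the 8 members measured by this rule, 0 were higher and 1, Ctsk, was lower in the library labelled SPP1, and without the single cell described above the interval of Ctsk reached inside 1.5-fold. Over all 8491 genes measured in the class, 0.377% were higher and 0.165% lower. The members' median log2 ratio was 0.01, against -0.02 for all genes. Cst3 had the highest ratio of the members, with 905 CPM in the library labelled SPP1 and 736 CPM in that labelled vector and a log2 ratio of 0.30 (0.24 to 0.35). Of 2314 genes with at least 1000 UMIs in the class, 5.88% had a higher one. Ctsb stood at 0.15 (0.12 to 0.17), Ctss at -0.14 (-0.17 to -0.12) and Ctsc at -0.16 (-0.20 to -0.13). The median absolute log2 ratio was 0.17 over genes with at least 100 UMIs and 0.13 over those with at least 1000. In size, Ctsb, Ctss and Ctsc lay between these medians. Of the 2314 genes, 17.8% had a higher ratio than Ctsb, 27.6% a lower one than Ctss and 24.3% a lower one than Ctsc. The intervals of Ctsl, Ctsz and Cstb held 0.

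Some ratios moved with the weight given to each state. With the 9 states weighted equally, Ctss was 3677 (SPP1) and 3725 (vector) CPM, or -0.02 as a log2 ratio, while Cst3 was at 0.35 and Ctsc at -0.21. Within the states the ratio of Cst3 ran from 0.02 (Fcrls/F13a1/Col14a1, -0.17 to 0.21) to 0.63 (Ifit3/Cmpk2/Ifit2). In single states larger differences stood against the class value: Ctsl was 338 (SPP1) and 653 (vector) CPM in the Fcrls/F13a1/Col14a1 state (-0.95, -1.18 to -0.72), and Ctsb in the Ifit3/Cmpk2/Ifit2 state stood at 0.76 (0.62 to 0.90), from 19 (SPP1) and 22 (vector) cells.

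Among T and NK-like cells 5 members were measured, of which 0 were higher and 0 lower, beside 0.575% of 2261 genes in each direction; their median log2 ratio was 0.01 against -0.07 for all genes. In the compartment 8 members were measured and 0 were past the rule in either direction, beside 1.75% of 15437 genes higher and 0.421% lower. Their median log2 ratio was 0.08, against 0.00 for all genes. The intervals of Cst3 (0.21, 0.18 to 0.24), Ctsz (0.16, 0.12 to 0.20), Ctsl (0.12, 0.10 to 0.13), Cstb (0.11, 0.10 to 0.13) and Ctsb (0.05, 0.03 to 0.07) lay above 0, and those of Ctss (-0.27) and Ctsc (-0.29) below it. The median absolute log2 ratio over genes with at least 100 UMIs was 0.14, above the values of Ctsl, Cstb and Ctsb and below the sizes of the other 4. Over genes with at least 1000 UMIs it was 0.115, close to the values of Ctsl (0.116) and Cstb (0.114). Without the clusters that came almost wholly from 1 library, Cst3 was at 0.25 and Ctsz at 0.24. With cells thinned to 1000 UMIs, Cst3 was at 0.13, Ctsz at 0.01 and Ctsb at -0.02. Levels also varied among the clusters of the compartment: Ctsl ran from 329 (SPP1) and 320 (vector) CPM in the Dpt/Aspn cluster to 852 (SPP1) and 695 (vector) CPM in the Agbl3/Cdca7 cluster, and Cst3 was highest in the Ppm1n/Gipc2 cluster at 280 (SPP1) and 237 (vector) CPM.

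In the small classes, which the size rule does not cover, a few intervals lay away from 0. Ctsb in endothelial-like cells was 1188 (SPP1) and 724 (vector) CPM (log2 ratio 0.71, 0.34 to 1.10) from 15 (SPP1) and 16 (vector) cells, with 0.02 to 0.76 over the alternative settings. Cst3 in fibroblast-like cells had a ratio of 0.69 (0.28 to 1.11) and Ctsl there -0.38 (-0.71 to -0.05). Ctss in dendritic cell-like cells was at -0.41 (-0.66 to -0.16).

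**Figure D5:**
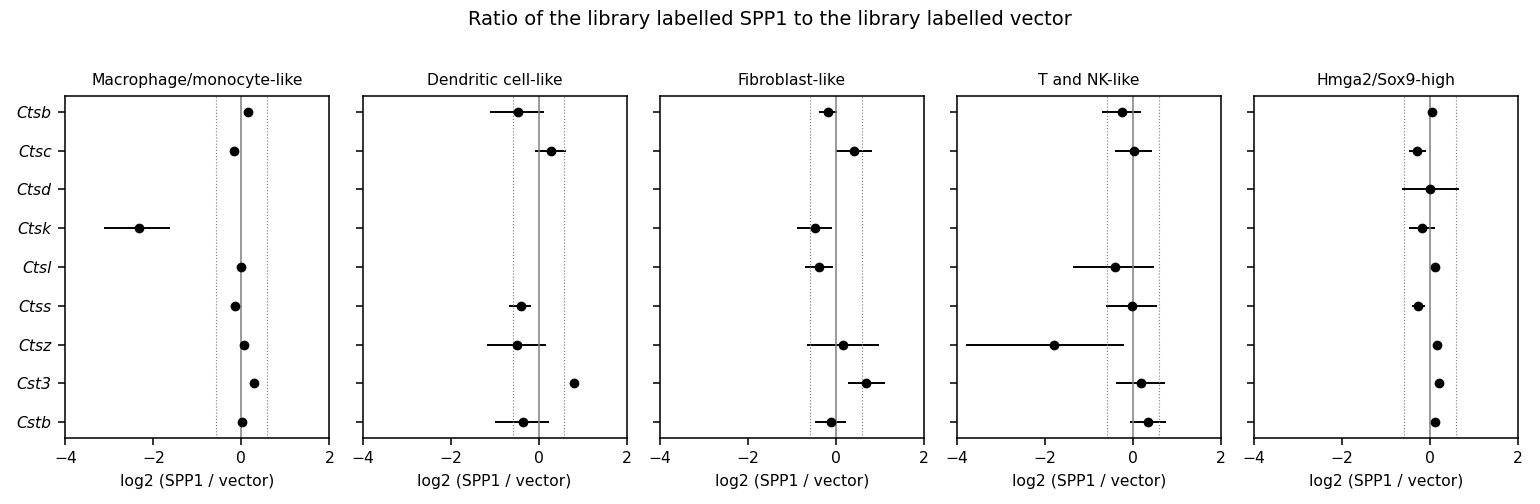
Log2 ratio of the library labelled SPP1 over that labelled vector for each member with at least 20 UMIs, in 5 classes, with exact 95% intervals; dotted lines mark 1.5-fold in either direction. Most members lie near 0 in macrophage/monocyte-like cells and in the compartment, Ctsk in macrophage/monocyte-like cells lies at -2.33 and Cst3 in dendritic cell-like cells at 0.81.

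The genes that work with the cathepsins were read from lists. Of 29 lysosomal hydrolases, 27 were measured in macrophage/monocyte-like cells, with 0 higher and 0 lower and a median log2 ratio of 0.06. The cholesterol carrier Npc2 stood at 940 (SPP1) and 993 (vector) CPM and the peptidase Tpp1 at 344 (SPP1) and 299 (vector) CPM. All 17 subunits of the vacuolar ATPase, the proton pump that acidifies lysosomes, were measured with 0 higher and 0 lower (Atp6v0c SPP1 719, vector 637 CPM). Of 12 genes for the sorting and maturation of lysosomal enzymes, 10 were measured with 0 in either direction. Among these, prosaposin (Psap) stood at 2229 (SPP1) and 2860 (vector) CPM, and Lgmn, the legumain that processes cathepsin precursors, at 1326 (SPP1) and 1412 (vector) CPM. All 4 lysosomal transcription factors were measured with 0 in either direction, as were 4 other cathepsins, among them Ctsh at 341 (SPP1) and 370 (vector) CPM.

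The MHC class II list, whose invariant chain is a Ctss substrate, differed more. All 9 genes were measured, and 0 were higher and 3 lower in the library labelled SPP1. Over all 8491 genes of the class, 0.377% were higher and 0.165% lower. The list's median log2 ratio was -0.59, against -0.02 for all genes. H2-Aa was 1777 (SPP1) and 3363 (vector) CPM (-0.92), H2-Eb1 1657 (SPP1) and 3128 (vector) CPM (-0.92) and H2-Ab1 1439 (SPP1) and 2497 (vector) CPM (-0.79), while Cd74, the invariant chain, was 3491 (SPP1) and 5267 (vector) CPM (-0.59) and not past the rule. The state led by H2-Eb1 held 14.4% (SPP1) and 26.4% (vector) of the class, and its part in these ratios was not tested. Of the 12 osteoclast-type genes 8 were measured and 1 was lower, Mmp9 with 2 (SPP1) and 108 (vector) UMIs, of which 100 lay in the one cell with 77 Ctsk UMIs.

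In T and NK-like cells 8 of 11 serine proteases that cathepsin C can activate were measured, with a median log2 ratio of 1.62 against -0.07. Of these 8, 5 were higher and 0 lower, beside 0.575% of all 2261 genes in each direction. The 5 were Gzmd, Gzme, Gzmf, Gzmg and Ctsg. The first 4 are near-identical granzymes between which reads may be split, and their UMIs lay in few cells: Gzmf had 2013 (SPP1) and 816 (vector) UMIs in 18 (SPP1) and 25 (vector) cells, and Gzmg 796 (SPP1) and 109 (vector) UMIs in 10 (SPP1) and 11 (vector) cells, 495 (SPP1) and 65 (vector) of them in 1 cell each. Ctsg, cathepsin G, had 107 (SPP1) and 0 (vector) UMIs, and 78 of the 107 lay in a single cell and the rest in 5 others. The widespread Gzmb stood at 2053 (SPP1) and 2225 (vector) CPM and Gzma at 392 (SPP1) and 360 (vector) CPM, beside a Ctsc of 170 (SPP1) and 168 (vector) CPM. In the same cells Cst7, cystatin F, which inhibits cathepsin C, was 367 (SPP1) and 324 (vector) CPM and Ctsw 181 (SPP1) and 147 (vector) CPM.

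In the compartment 1 gene of these lists passed the rule, Gzmf, which was higher with 76 (SPP1) and 26 (vector) UMIs (log2 ratio 1.55, 0.89 to 2.25), or 0.544 (SPP1) and 0.186 (vector) CPM. These UMIs lay in 72 (SPP1) and 26 (vector) cells, at most 3 (SPP1) and 1 (vector) in a cell. Gzmf was also higher in the T and NK-like cells of the library labelled SPP1, and the share of free RNA in the compartment counts was not tested. Of the serine proteases 4 were measured in the compartment, where 1.75% of all 15437 genes were higher and 0.421% lower. Cd74 stood at 137 (SPP1) and 100.4 (vector) CPM (0.45) and Mmp9 at 5.83 (SPP1) and 8.24 (vector) CPM (-0.50), neither past the rule. Of the lysosomal hydrolases 27 were measured with 0 higher and 0 lower; their median log2 ratio was 0.14 against 0.00 for all genes. The 12 sorting and maturation genes had a median of -0.08, with Lamp1, a lysosomal membrane protein, at 144 (SPP1) and 172 (vector) CPM. Of the other cystatins 2 were measured, and Cst6, cystatin E/M, stood at 55.8 (SPP1) and 42.7 (vector) CPM (0.39), not past the rule.

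Among 10299 genes with at least 1000 UMIs, those whose log2(CPM + 1) ran most like each member were ranked by Pearson's r over 30 points. The points are 15 groups of cells in 2 libraries, share their libraries, and in part share depth. Ctss was most like Fcgr3 (0.986) and Cybb (0.985), Ctsc like Plxnc1 (0.953), Ctsb like Lgmn (0.953) and Hmox1 (0.948), and Ctsz like Sirpa (0.963). Cstb was most like Fgd4 (0.925), Cst3 like Wdfy4 (0.896) and Ctsl like Pmp22 (0.867). Ctsk and Ctsd had too few UMIs to be ranked.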

How the data were processed

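A pair of single-cell RNA libraries of tumours was analysed, 1 labelled SPP1 and 1 labelled vector. The values are deposited UMI counts per gene and cell; per the submitters' processing notes, Cell Ranger 2.1.1 and the build GRCm39 were used, and the annotation and the handling of overlapping genes are not given. The deposited counts held 14029 barcodes and 164599332 UMIs (median 10218 a cell) in the library labelled SPP1 and 14317 barcodes and 164247003 UMIs (median 10277) in that labelled vector. The filter asked for 300 genes, 500 UMIs and no more than 15% of UMIs from mitochondrial genes (SPP1 13956, vector 14243 cells passed), and a Scrublet-like caller removed 406 (2.91%) predicted doublets from the library labelled SPP1 and 395 (2.77%) from that labelled vector. Of the 93 barcodes in both libraries, 91 (SPP1) and 90 (vector) were among the kept cells.

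Clustering used 2000 variable genes, 30 components, 20 neighbours and Leiden resolution 1, without cathepsin and cystatin genes. A cluster was named where at least 3 and 50% of a list's detected markers were raised by a log2 of 1 and their mean log2 was at least 2. Clusters matching a list were split again, and a part that passed this rule could still be left as mixed or unnamed. A pair with 12 of 13 macrophage markers raised was left so (SPP1 89, vector 133 cells, and SPP1 66, vector 94 cells). Their shares of compartment genes, 0.523 and 0.547, were past the limit of 0.25. Members' UMIs were summed by class and library and given as CPM with exact Poisson intervals, and the ratio of 2 sums with an exact conditional binomial interval. No test over samples was possible with 1 library a group. A count of 0 is given with the level that 3 counts would allow. The ratio rule was run on simulated Poisson counts, the model that its intervals assume, without spread between cells. That run cannot show how the rule behaves where few cells carry a sum, as for Ctsk.

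The members and gene lists were chosen with earlier results of these data known. Named genes were the members, the list genes with most UMIs or past the size rule, and the 5 genes most like each member; the cells with 20 or more Ctsk UMIs and the dendritic subsets were chosen after their values were seen. Alternatives covered the filter, doublets, scaling, thinning, resolution, clustering genes, the size rule and single cells. Promoters came from RefSeq; protein sequences were not used here. Software was Python 3.11.15, numpy 2.4.6, scipy 1.17.1, pandas 2.3.3, leidenalg 0.10.2, igraph 0.11.9 and matplotlib 3.10.9.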

Additional observations from a re-analysis of the deposited data

How the results depend on the processing

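No paired analysis was possible because each group has 1 library. The number of members past 1.5-fold in macrophage/monocyte-like cells was 1 (Ctsk) and became 0 with doublets kept, 0 with cells thinned to 1000 UMIs and 0 without the 3 cells with most UMIs of the gene. With doublets kept, the cell with 77 Ctsk UMIs was no longer in the class but in the T and NK-like class. Under the other 10 settings, and for T and NK-like cells and the compartment under all 13, the counts moved by at most 1.5 times. The main counts are 0 or 1, so that limit cannot show how stable they are. Other values depended more on the setting. With cells thinned to 1000 UMIs, 8 of 12 cystatin quotients and 52 of 108 class levels counted as moved. Without the 3 cells with most UMIs of the gene, 93 of 162 macrophage state levels did. With the stricter cell filter these numbers were 0 of 12, 0 of 108 and 3 of 162. Over the settings the log2 ratio in macrophage/monocyte-like cells ran from 0.29 to 0.39 for Cst3, from -0.19 to -0.02 for Ctss and from -2.34 to -0.58 for Ctsk, and in the compartment from -0.02 to 0.08 for Ctsb. With macrophage states at resolution 0.5, Ctsb was highest in a Rsad2/Mmp13/Ccl5 state at 5259 (SPP1) and 4692 (vector) CPM. Leaving out shared barcodes or the low-UMI macrophage state, weighting states equally and leaving out the top Ctsk cell were chosen after seeing the data. Classes of 15 to 48 cells limit every value of dendritic, fibroblast-like and endothelial-like cells.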
